A study of Homo sapiens with 18 samples.

Results

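The difference between 2 responses to a progestin was measured in THESC cells, an established line of human endometrial stromal cells. For each gene, the log2 change under medroxyprogesterone acetate (MPA, a synthetic progestin) in cells with a non-targeting CRISPR guide (NT cells, labelled WT) was subtracted from the change under MPA in cells engineered with the guide called Promoter (promoter cells, whose genotype label reads PGRB-dominant). PGR encodes the progesterone receptor, and the series describes this line and the U1U2 line below as having its isoforms activated at different ratios. The comparison used 12 of the 18 libraries of the series, 3 in each of 4 groups: NT vehicle, NT MPA, promoter vehicle and promoter MPA. Vehicle was 0.01% ethanol, MPA was given at 1 µM, and both lasted 72 hours, in medium with charcoal-stripped serum that followed a step in low serum. The engineered cells had been kept under blasticidin before that. The remaining 6 libraries came from a line with guides named U1U2, labelled PGRA/B-equivalent. They shared the fit, with its filter, scaling and estimate of the spread, but did not enter the contrast. Their values are set beside the genes found. Below, other libraries and elsewhere refer to the 12 libraries compared. The labels do not say whether a line is a single clone, and each guide is represented by 1 line, so a difference between guides and a difference between lines cannot be told apart. Nothing in the labels tells whether the 3 replicates of a group were grown apart, and a p-value here reflects the variation among libraries, which could be technical.

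Progesterone receptor is a nuclear receptor with a long isoform, PGRB, and a shorter one, PGRA, both made from PGR. When a progestin binds, the receptor moves onto DNA and raises or lowers transcription of its target genes. In the endometrial stroma this starts decidualisation, in which fibroblast-like cells leave the cell cycle, lay down a new matrix and secrete factors that support an implanting embryo. FOXO1 and HAND2 are transcription factors of that programme. A response in the promoter cells can be larger because the gene stands further apart between the lines under MPA, or because it stands apart already in vehicle, and the groups allow these to be separated.

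Library totals ran from 11.9 to 33.4 M counts. All 12 libraries carried the same batch label. VIM, a stromal intermediate filament, stood at 1215 to 1926 CPM (counts scaled to library size, with TMM factors), and CD3E (T cells) was at 0 counts in every library. Other markers of other cell types stood at 0 to 3 counts for CDH1, 3 to 34 for EPCAM and 105 to 460 for KRT18 (epithelium), 0 to 4 for PECAM1, 0 to 2 for CDH5 and 673 to 2675 for TEK (endothelium), and 33 to 143 for PTPRC (leukocytes). PGR itself stood at 120, 153 and 147 CPM in the NT vehicle libraries, 95.1, 82.3 and 76.2 in NT MPA, 433, 475 and 395 in promoter vehicle and 264, 303 and 280 in promoter MPA. Each promoter library thus held more PGR than any NT library. The fall of PGR under MPA was close to parallel: the difference of responses was 0.11 ± 0.17 (log2, standard error, adjusted p = 0.787) and was not called.

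Of 15558 genes tested with edgeR's quasi-likelihood test, 242 (1.56%) were called for the difference of responses at a Benjamini-Hochberg adjusted p under 0.05. In 125 (0.803%) the promoter response was the more positive and in 117 (0.752%) the more negative. At an unadjusted p under 0.05 there were 2307 genes. The responses that enter the difference were called in 922 genes (5.93%) in NT cells, with 2.44% of genes higher and 3.48% lower, and in 2339 (15.0%) in promoter cells, with 6.63% higher and 8.40% lower. A gene is described as enlarged where the promoter response was called and larger in absolute size than the NT response, as reduced where the NT response was called and larger, and as reversed where both were called in opposite directions. Nearly all differences were enlargements, with 218 genes enlarged, 18 reduced, 1 reversed and 5 that met none of these descriptions. Among the enlarged genes 113 rose more and 105 fell more in promoter cells. The NT response was itself called in 71 of them, 44 that rose and 27 that fell, while the other 147 had no called response in NT cells.

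**Figure D1:**
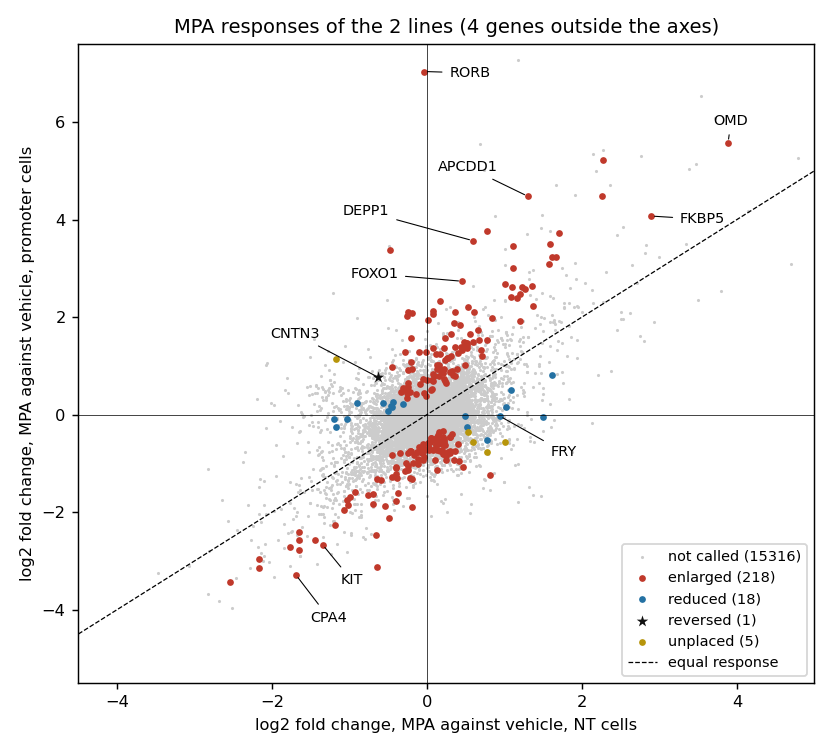
MPA response of each tested gene in NT cells (x axis) and in promoter cells (y axis), both as log2 fold change against vehicle; 4 genes lie outside the axes. Grey points are the 15316 genes not called for the difference of responses, coloured points the 242 called genes by description, and the dashed line marks equal responses. The 218 enlarged genes lie farther from 0 on the y axis than on the x axis, the 18 reduced genes lie between -0.53 and 0.81 on the y axis, and CNTN3 is the 1 gene with called responses in opposite directions.

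The place of the difference split the called genes by direction. Promoter and NT cells were compared within each treatment, which called 1050 genes (6.75%) in vehicle, 3.07% higher and 3.68% lower in promoter cells, and 645 (4.15%) in MPA, 1.77% higher and 2.37% lower. Of the 242 genes, 107 were called apart under MPA and not in vehicle, 98 in vehicle and not under MPA, 24 in both and 13 in neither. A difference is described below as lying under MPA or in vehicle by these calls, and a gap that missed the call can still be large, as in HAND2. By size alone, the gap between the lines was larger under MPA in 136 genes and in vehicle in 106. Where the promoter response was the more positive, 75 genes were called under MPA and 27 in vehicle (by size 91 and 34). Where it was the more negative, 32 were called under MPA and 71 in vehicle (by size 45 and 72). The genes placed in vehicle fell from 98 to 28 without promoter vehicle replicate 1, 30 and 50 without NT vehicle replicates 2 and 3, 57 without NT MPA replicate 3, and 36, 47 and 49 without promoter MPA replicates 1, 2 and 3. Those placed under MPA fell from 107 to 67 and 68 without promoter MPA replicates 2 and 3. The negative differences fell from 117 to 36 and 53 without NT vehicle replicates 2 and 3, 64 without NT MPA replicate 3, 41 and 76 without promoter vehicle replicates 1 and 2, and 40, 54 and 50 without promoter MPA replicates 1, 2 and 3. The positive ones fell from 125 to 80, 78 and 83 without NT vehicle replicate 2, promoter vehicle replicate 1 and promoter MPA replicate 2. Of the 24 genes that differed in both treatments, 12 kept the same direction and 12 stood lower in one treatment and higher in the other. FOXO1, LAMA2 and IFIT3 were among the latter.

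**Figure D2:**
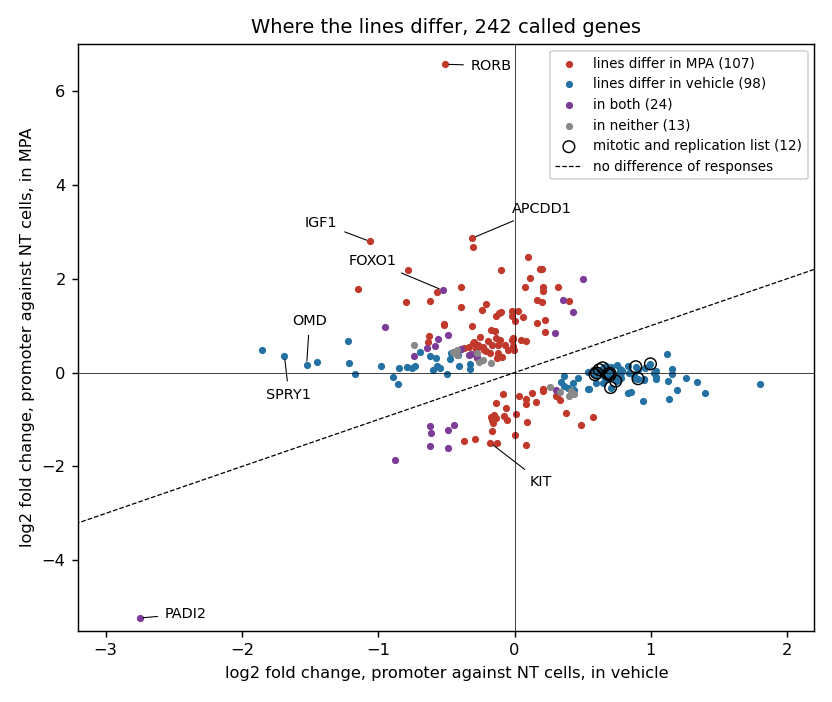
Promoter against NT cells as log2 fold change in vehicle (x axis) and in MPA (y axis) for the 242 called genes, coloured by the treatment in which the lines differed; rings mark the 12 called genes of the mitotic and replication list. Genes called apart under MPA and not in vehicle (107) lie between -1.15 and 0.58 on the x axis (median -0.11). Genes called apart in vehicle and not under MPA (98) lie between -0.60 and 0.67 on the y axis. All 12 ringed genes are among these 98 and lie between 0.59 and 1.00 on the x axis.

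The decidual transcription factors FOXO1 and HAND2 rose more in promoter cells. FOXO1 (13:40469953-40666597 on GRCh38), a forkhead transcription factor, stood at 22.3, 28.2 and 24.5 CPM in NT vehicle, 38.9, 34 and 29.9 in NT MPA, 16.4, 18.3 and 17.6 in promoter vehicle and 110, 121 and 116 in promoter MPA. No 2 of these groups overlapped, and the promoter line had both the lowest vehicle values and the highest MPA values. The log2 response was 0.45 ± 0.12 in NT cells and 2.73 ± 0.12 in promoter cells, a difference of 2.28 ± 0.17 (adjusted p = 8.68e-07). Both ends contributed: promoter minus NT was -0.53 ± 0.12 in vehicle (adjusted p = 0.0121) and 1.75 ± 0.12 in MPA (adjusted p = 4.66e-08). HAND2 (4:173524969-173530229), a helix-loop-helix factor of the endometrial stroma, stood at 11.9, 11.9 and 18.3 CPM in promoter vehicle and 56.9, 49.5 and 44.7 in promoter MPA, against 26.1, 18.9 and 20.8 in NT vehicle and 29.4, 34.6 and 23.6 in NT MPA. The promoter groups lay on either side of all NT libraries, while the NT groups overlapped. The difference of responses was 1.41 ± 0.28 (adjusted p = 0.0138), with the call between lines under MPA (0.78 ± 0.19). HAND2-AS1, named here because it overlaps HAND2 on the other strand, had a difference of 1.13 ± 0.21 (adjusted p = 0.00836), placed in vehicle. The strand setting of the counter is not given, so the 2 genes may share reads.

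Of 29 measured decidual markers and factors, FOXO1, HAND2 and TXNIP had the more positive and BMP2 the more negative promoter response (medians 0.18 over the list and -0.03 over all tested genes). Over all tested genes 0.803% were called more positive and 0.752% more negative. The list held other large but uncalled differences. HSD11B1, which turns cortisone into cortisol, had a difference of 1.66 (adjusted p = 0.094) and S100A4, a calcium-binding protein, one of -1.32 (adjusted p = 0.054). ZBTB16, a zinc finger factor, summed to 0 counts in NT vehicle, 528 in NT MPA, 1 in promoter vehicle and 1552 in promoter MPA. Its difference of -0.27 ± 0.36 was small and not called (adjusted p = 0.785), and with vehicle groups at 0 and 1 counts this fitted value depends on the prior count. Under MPA the lines were called apart, with ZBTB16 higher in promoter cells (1.46 ± 0.18, adjusted p = 0.000146). PRL and IGFBP1, the classical decidual secretory genes, were at 0 to 7 counts per library and were not tested.

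**Figure D3:**
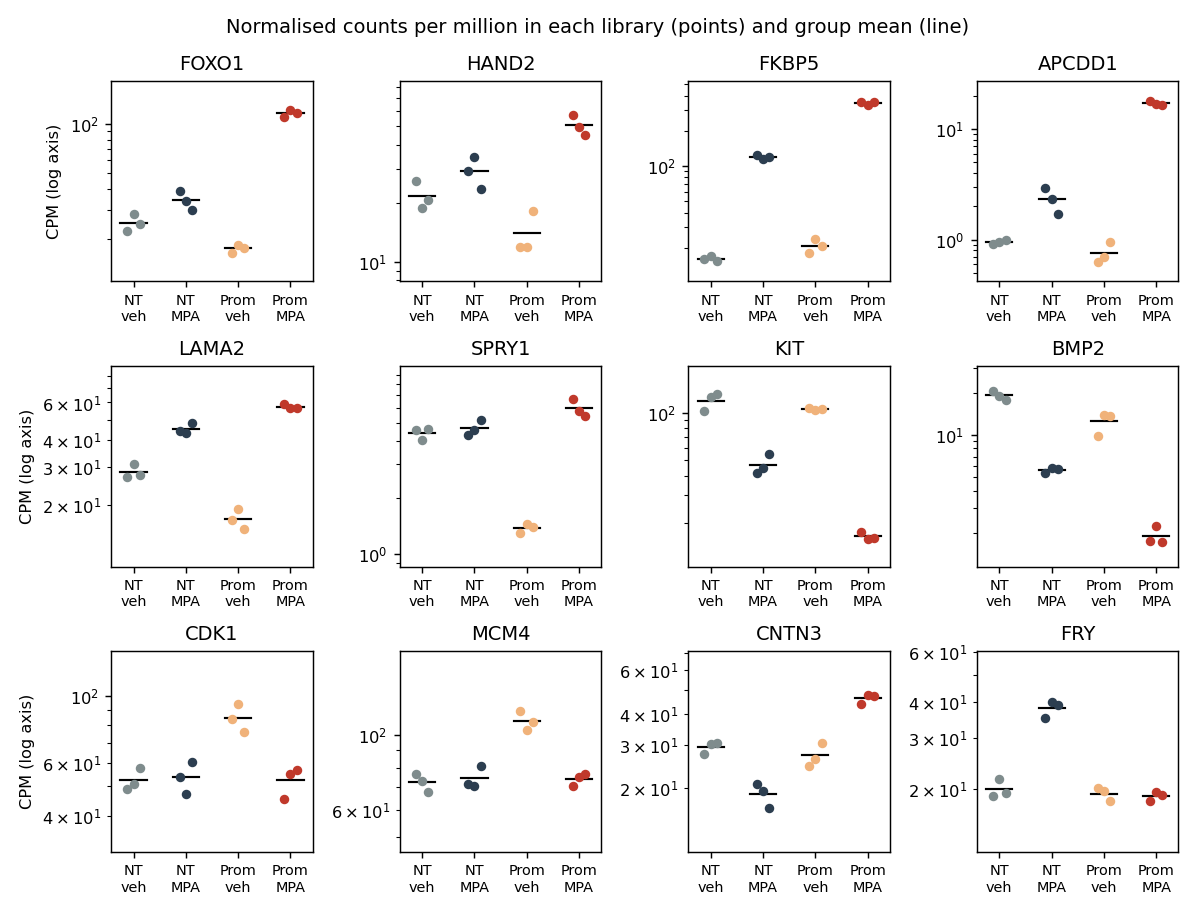
CPM on a log axis in each of the 12 libraries (points) with the group mean (line) for 12 genes; the axis range differs between panels. FOXO1, HAND2, FKBP5 and APCDD1 have the promoter MPA group above all others, LAMA2 and SPRY1 have the promoter vehicle group below all others, KIT and BMP2 have the promoter MPA group lowest, CDK1 and MCM4 have the promoter vehicle group highest, CNTN3 moves in opposite directions, and the NT MPA group of FRY lies above its other groups.

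A few genes known as FOXO targets were called along with FOXO1 itself. Of 19 measured FOXO factors and targets, 3 were called, all with the more positive promoter response: FOXO1, DEPP1 and TXNIP (list median 0.34). That call was made for 0.803% of all tested genes. DEPP1, a FOXO-induced regulator of autophagy, went from 0.911, 0.565 and 1 CPM in promoter vehicle to 11.5, 11 and 8.35 in promoter MPA. Its NT libraries stood at 1.34, 0.953 and 0.983 in vehicle and 1.73, 1.68 and 1.38 in MPA, so that every promoter MPA library was above every other library of the 12 compared. In U1U2 MPA DEPP1 stood at 9.84, 11.2 and 15.6 CPM. The NT response was not called (0.59 ± 0.29), the promoter response was 3.57 ± 0.25, and the difference was 2.97 ± 0.39 (adjusted p = 0.000437). TXNIP, an inhibitor of thioredoxin and of glucose uptake, differed in vehicle instead. It stood at 169, 223 and 150 CPM in promoter vehicle against 339, 325 and 311 in NT vehicle, and at 519, 494 and 493 in promoter MPA, within the range of the NT MPA libraries (422 to 553). Its difference was 0.95 ± 0.20 (adjusted p = 0.0202). That call was lost with NT vehicle replicate 2, NT MPA replicate 1, NT MPA replicate 2, promoter vehicle replicate 1 or any of the 3 promoter MPA replicates left out (adjusted p up to 0.0791). FOXO3 (0.40), KLF15 (1.35) and IRS2 (0.60) had adjusted p values of 0.083, 0.055 and 0.062.

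The promoters of DEPP1 and TXNIP are shown because these genes place the difference in opposite treatments while both carry the forkhead motif GTAAACA. The 250 bases before the RefSeq start are given on the gene's strand (GRCh38.p14, both genes on the minus strand, DEPP1 at chr10:44978810-44979059 and TXNIP at chr1:145996580-145996829), with motif matches in capitals: the forkhead motif begins 180 bases before the start in DEPP1 and 124 before it in TXNIP, and the second stretch of capitals in TXNIP, 175 bases before the start, matches the palindromic response element of receptors of the progesterone and glucocorticoid type (G, any base, ACA, any 3 bases, TGT, any base, C).
DEPP1: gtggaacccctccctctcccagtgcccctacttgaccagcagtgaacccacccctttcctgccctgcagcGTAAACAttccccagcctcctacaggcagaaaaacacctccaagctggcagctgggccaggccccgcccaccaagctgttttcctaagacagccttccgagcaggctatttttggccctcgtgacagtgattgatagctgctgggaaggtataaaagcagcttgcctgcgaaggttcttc
TXNIP: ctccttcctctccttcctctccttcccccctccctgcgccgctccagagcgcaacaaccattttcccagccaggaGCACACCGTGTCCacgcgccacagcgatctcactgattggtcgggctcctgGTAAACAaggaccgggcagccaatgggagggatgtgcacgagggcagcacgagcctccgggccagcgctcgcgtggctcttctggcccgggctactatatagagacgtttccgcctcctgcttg
Searched on both strands of windows from 250 bases before to 50 after the start, the forkhead motif was found in 389 of 11003 tested genes with a window (3.54%). It was found in 10 of 90 enlarged genes with the more positive promoter response (11.1%). A gene was counted if any of its windows held a match, so genes with several starts had more chances. Where a gene had several windows, the sequence shown is from the one with the most matches. The palindrome was found in 37 of the 11003 (0.336%) and in 2 of the 90. A match is a description of letters and shows no binding.

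Among genes known to be induced by steroid receptors, FKBP5, GLUL and SLC19A2 had the more positive promoter response. Of 24 measured, 12 rose in NT cells, 17 rose in promoter cells and 3 were called for the difference, against 0.803% of all tested genes with a more positive promoter response. Called rises covered 2.44% of all tested genes in NT cells and 6.63% in promoter cells. The list median was 0.41, and 20 of the 24 differences were above 0. FKBP5, a co-chaperone that restrains steroid receptors, had its vehicle libraries at 16.1, 16.9 and 15.5 CPM in NT cells and 17.9, 23.8 and 20.7 in promoter cells. Under MPA it reached 124, 116 and 120 CPM in NT cells and 354, 334 and 356 in promoter cells. The difference of responses was 1.18 ± 0.13 (adjusted p = 0.00013). Promoter cells were called higher in both treatments, by 1.54 ± 0.09 under MPA and by 0.36 ± 0.10 in vehicle. The vehicle gap had the same direction and so made the difference of responses smaller. GLUL, glutamine synthetase, had a difference of 0.52 ± 0.10 (adjusted p = 0.0106, lost at 0.0664 with no filter on low counts), all of it under MPA, at 288, 260 and 259 CPM in promoter cells against 184, 192 and 206 in NT cells. SLC19A2, a thiamine transporter, had a promoter response of 1.02 ± 0.14 and an uncalled NT response of 0.15 ± 0.14. With 1 library left out, its difference of 0.87 ± 0.19 stayed called only where that library was NT vehicle replicate 1, NT MPA replicate 1, promoter vehicle replicate 2 or promoter vehicle replicate 3 (adjusted p up to 0.0926). PER1, a clock gene, rose by 2.26 in NT and 2.30 in promoter cells (difference 0.04 ± 0.44), and ERRFI1, an inhibitor of EGF receptor, by 2.14 and 2.29 (0.15 ± 0.12), without a called difference.

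APCDD1, INHBB, NRP2 and HGF, which carry or modify extracellular signals, rose more in promoter cells. APCDD1 (18:10454628-10489948), a membrane inhibitor of WNT signalling, stood at 0.92, 0.953 and 0.983 CPM in NT vehicle, 2.9, 2.34 and 1.72 in NT MPA, 0.629, 0.69 and 0.946 in promoter vehicle and 18.1, 17 and 16.6 in promoter MPA. It rose in both lines, and each promoter MPA library was above every other library. The responses of 1.30 ± 0.21 and 4.48 ± 0.18 differed by 3.17 ± 0.29 (adjusted p = 1.07e-05), with the lines apart under MPA (2.87 ± 0.16) and no call in vehicle. INHBB, the beta B subunit of activin and inhibin, had a difference of 1.31 ± 0.25 (adjusted p = 0.0114), also under MPA, where it stood at 9.57, 8.45 and 8.85 CPM in promoter cells and 3.46, 3.07 and 2.89 in NT cells. NRP2, a co-receptor for semaphorins and VEGF, followed the same pattern with 0.86 ± 0.11 (adjusted p = 0.000361). HGF, a growth factor made by stroma, rose in promoter cells (0.54 ± 0.12) and not by a call in NT cells (-0.28 ± 0.12). Its difference of 0.82 ± 0.16 was lost without promoter vehicle replicate 1 (adjusted p = 0.0519).

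SPRY1 (4:123396795-123403760), a feedback inhibitor of receptor tyrosine kinase signalling, showed the vehicle pattern. Its NT libraries stood at 4.6, 4.05 and 4.65 CPM in vehicle and 4.33, 4.58 and 5.16 in MPA, without a called response. In promoter cells it stood at 1.29, 1.44 and 1.39 in vehicle and 6.67, 5.78 and 5.46 in MPA. The promoter vehicle libraries were thus below every other library, and the lines were not called apart under MPA (0.36 ± 0.14, adjusted p = 0.206). The difference of responses was 2.04 ± 0.21 (adjusted p = 4.07e-05), of which -1.69 ± 0.16 stood between the lines in vehicle. SIX2, a homeobox factor (1.67 ± 0.25, with -1.45 ± 0.19 in vehicle), ABCA8, a lipid transporter (1.89 ± 0.33, with -1.22 ± 0.25), and OMD, a matrix proteoglycan (1.69 ± 0.31, with -1.53 ± 0.27), were further genes with a lower start in promoter cells and no called gap under MPA. OMD rose to 17.4, 14.2 and 11.5 CPM in NT cells and to 15.7, 16.2 and 16.7 in promoter cells, overlapping ranges, from about 0.962 and 0.331 CPM on average.

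Laminin chains were among the called matrix genes. Of 58 measured fibrillar and basement matrix genes, 4 had the more positive promoter response (LAMA2, LAMB1, OMD and MFAP5) and 1 the more negative (LAMA4), with a list median of 0.03, where 1.56% of all tested genes were called in either direction. LAMA2, the laminin alpha 2 chain of basement membranes, stood at 26.9, 31.2 and 27.6 CPM in NT vehicle, 44.1, 43.2 and 48.1 in NT MPA, 17, 19.2 and 15.6 in promoter vehicle and 59, 56.6 and 56.4 in promoter MPA. No groups overlapped, and the order of the lines turned between treatments. Its difference was 1.08 ± 0.13 (adjusted p = 0.000255). LAMB1, the laminin beta 1 chain, differed by 0.71 ± 0.14 under MPA, and MFAP5, a microfibril protein, by 0.96 ± 0.16 in vehicle. LAMA4, the alpha 4 chain, fell in promoter cells (-0.75 ± 0.08) and was lower there in both treatments. With 1 library left out, its difference of -0.52 ± 0.11 stayed called only where that library was NT vehicle replicate 1, NT MPA replicate 2, promoter vehicle replicate 2 or promoter vehicle replicate 3 (adjusted p up to 0.0922). Among 33 matrix-degrading enzymes and inhibitors, ADAMTS2, a procollagen protease (1.33 ± 0.16), and PLAT, tissue plasminogen activator (0.88 ± 0.17), had the more positive and MMP1 and PLAU the more negative promoter response, with a list median of -0.25. ADAMTS2 reached 299, 278 and 280 CPM in promoter MPA and 100, 116 and 130 in NT MPA, from vehicle values that overlapped (46.5 to 59.1 and 52 to 57.5).

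The remaining genes with the largest enlarged rises had diverse functions. CAMK1G, a calcium/calmodulin-dependent kinase, had its 9 other libraries between 2.29 and 4.77 CPM and the promoter MPA libraries at 14.2, 11.5 and 12.2 (difference 2.27 ± 0.34, adjusted p = 0.00133). SLC7A8, a transporter of neutral amino acids, stood at 20.6, 21.8 and 20.8 CPM in promoter MPA against 3.89 to 9.12 elsewhere (2.27 ± 0.29). G0S2, an inhibitor of lipid breakdown, stood at 10.8, 10 and 10.9 CPM against 1.9 to 3.15 elsewhere (2.00 ± 0.25). In these genes the NT response was not called and the promoter MPA libraries alone stood apart. LONRF2, a ring finger protein, was of the same kind (1.78 ± 0.26). IMPA2, an inositol monophosphatase, rose in NT cells too, to 11.9, 12.2 and 14.2 CPM, and in promoter cells to 65.1, 58.1 and 52 (difference 2.02 ± 0.21, adjusted p = 4.47e-05). Below the expression level set for naming, and chosen after their values were seen, RORB and IGF1 were nearly silent in the other groups of the comparison. RORB, a nuclear receptor of the ROR family, summed to 5, 7 and 6 counts over the NT vehicle, NT MPA and promoter vehicle libraries and to 760 over promoter MPA (difference 7.08 ± 0.86, adjusted p = 0.000224). IGF1, insulin-like growth factor 1, summed to 15, 15, 12 and 115 counts. Its difference of 3.85 ± 0.65 was lost without NT vehicle replicate 2 (adjusted p = 0.2355). In U1U2 cells RORB summed to 2 counts in vehicle and 105 in MPA, and IGF1 to 7 and 50. Both U1U2 responses were called (5.65 ± 0.39 for RORB and 2.99 ± 0.46 for IGF1).

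Enlarged falls that lay under MPA included receptors and ligands. KIT (4:54657918-54740715), the receptor of stem cell factor, stood at 102, 125 and 131 CPM in NT vehicle and 107, 104 and 105 in promoter vehicle. Under MPA it fell to 41.6, 44.5 and 54.7 in NT cells and to 17.5, 16 and 16.3 in promoter cells. The vehicle groups overlapped and the MPA groups did not. The responses of -1.35 ± 0.11 and -2.67 ± 0.12 differed by -1.32 ± 0.16 (adjusted p = 0.000191). HTR2B, a serotonin receptor, fell from 112, 129 and 117 to 75.7, 76.1 and 94.3 CPM in NT cells and from 122, 132 and 105 to 31.5, 31.4 and 34.5 in promoter cells (difference -1.34 ± 0.17). SEMA3A, a secreted semaphorin, had a difference of -0.84 ± 0.13 under MPA, and CPA4, a carboxypeptidase, one of -1.59 ± 0.27 (adjusted p = 0.00426). CPA4 went to 1.85, 1.56 and 1.44 CPM in promoter cells and to 2.99, 4.11 and 3.3 in NT cells. HCP5, a long non-coding RNA of the major histocompatibility region, stood at 4.07, 3.99 and 3.97 CPM in promoter MPA and at 10.2 to 18.8 in all other libraries (-1.38 ± 0.20). AFAP1L2, an adaptor of the actin cytoskeleton, had -1.24 ± 0.22.

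The ligands FGF9, BMP2 and WNT2 fell in both lines, fell more in promoter cells and were lower there in vehicle as well as in MPA. FGF9 stood at 39.4, 44.9 and 45.1 CPM in NT vehicle, 15.2, 14.7 and 11 in NT MPA, 26.2, 30.1 and 35.8 in promoter vehicle and 4.44, 4.95 and 4.11 in promoter MPA. The 4 groups did not overlap, and the difference was -1.11 ± 0.21 (adjusted p = 0.00867). WNT2 had -0.66 ± 0.12 (adjusted p = 0.00716). BMP2 had -0.94 ± 0.22 (adjusted p = 0.0363), from responses of -1.77 ± 0.15 and -2.71 ± 0.16. The call was lost with the 4 groups fitted alone, and with 1 library left out it held only where that library was NT vehicle replicate 1, promoter vehicle replicate 1 or promoter MPA replicate 2 (adjusted p up to 0.13). Counts over whole lists stand beside 0.803% more positive and 0.752% more negative among all tested genes. Of 29 genes of FGF and receptor tyrosine kinase feedback 2 had the more positive (HGF and SPRY1) and 2 the more negative response (FGF9 and KIT, list median 0.09). The counts were 2 and 1 of 28 for the BMP, TGF-beta and activin pathway (INHBB and TGFB2, and BMP2, median 0.18), 1 and 1 of 23 for the WNT pathway (APCDD1 and WNT2, median -0.04) and 2 and 2 of 28 for angiogenic and vascular factors (NRP2 and F3, and SEMA3A and PTGS1, median 0.17). The call of F3, tissue factor, was lost without NT vehicle replicate 3, promoter vehicle replicate 1 or promoter MPA replicate 3 (adjusted p up to 0.0638). Of 35 interferon-stimulated genes 2 had the more negative response, IFIT1 (-0.75 ± 0.12) and IFIT3 (-0.67 ± 0.11), which encode antiviral RNA-binding proteins (list median -0.11). IFIT1 stood at 66.7, 55.1 and 56.4 CPM in promoter MPA and 90.3, 97.6 and 94.5 in NT MPA, with overlapping vehicle groups.

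The extracellular proteases MMP1 and PLAU had the vehicle pattern. MMP1, interstitial collagenase, was higher in promoter vehicle (54.2, 45.3 and 46.2 CPM) than in NT vehicle (29.5, 27.3 and 28.1) and came down to like levels under MPA, 4.56, 4.03 and 4.88 against 4.72, 4.77 and 5.09. Its difference was -0.89 ± 0.15 (adjusted p = 0.00498). PLAU, urokinase, stood at 31.6, 29.2 and 26.6 CPM in promoter vehicle against 10.3 to 18.7 in all other libraries. Its difference of -1.13 ± 0.26 (adjusted p = 0.034) held, with 1 library left out, only where that library was NT vehicle replicate 1, NT MPA replicate 1 or promoter vehicle replicate 3 (adjusted p up to 0.131).

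Cell-cycle genes made up a block in which the difference lay in vehicle. Of 53 measured mitotic and replication genes, 12 were called, all with the more negative promoter response: NDC80, AURKA, TPX2, CDC6, MCM4, KIF2C, CCNA2, CDC25C, BUB1, CDK1, RRM2 and EXO1. Over all tested genes 0.752% were called with the more negative response. All 12 were called higher in promoter than in NT cells in vehicle, and none under MPA. In vehicle 41 of the 53 were called higher in promoter cells, against 3.07% of all tested genes. The list median was -0.62 for the difference, 0.67 for promoter against NT cells in vehicle and 0.07 in MPA, and all 53 members had a negative difference. In NT cells none of the 53 was called under MPA (median 0.09), and in promoter cells 36 fell (median -0.52), against 8.40% of all tested genes. CDK1 (10:60778331-60794852), the kinase that drives entry into mitosis, stood at 48.9, 51.1 and 57.6 CPM in NT vehicle, 53.6, 47.2 and 60.5 in NT MPA, 83.9, 94.1 and 75.8 in promoter vehicle and 45.5, 55 and 56.9 in promoter MPA. Only the promoter vehicle libraries stood apart, and the difference was -0.72 ± 0.16 (adjusted p = 0.0262). MCM4, a subunit of the replication helicase, stood at 118, 103 and 109 CPM in promoter vehicle and at 67.6 to 81.1 elsewhere (-0.61 ± 0.11, adjusted p = 0.00836). RRM2, a subunit of ribonucleotide reductase (-0.63 ± 0.12), and EXO1, a DNA exonuclease (-0.76 ± 0.14), had the same pattern.

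**Figure D4:**
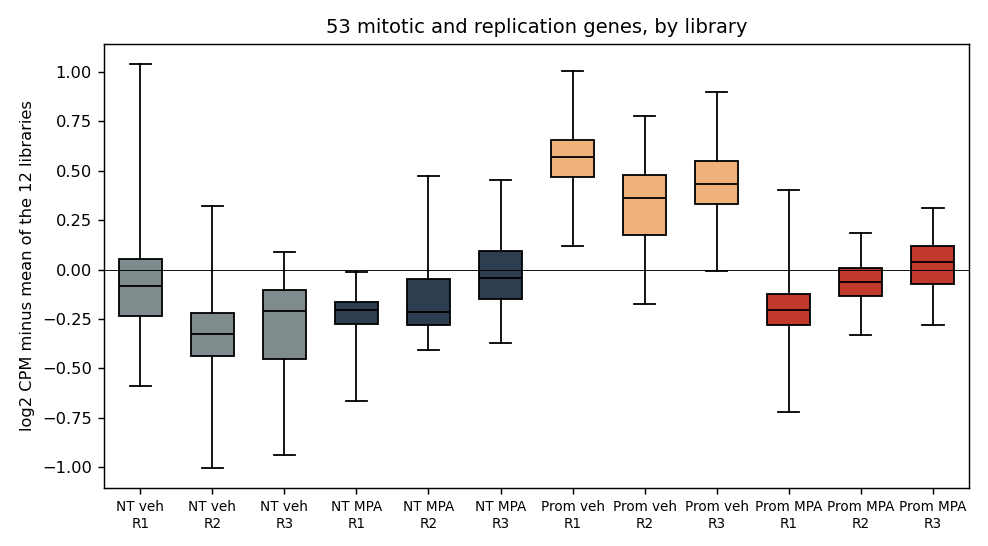
Log2 CPM of the 53 measured mitotic and replication genes in each of the 12 libraries, relative to each gene's mean over these libraries; boxes span the quartiles, the line in a box is the median and whiskers reach the lowest and highest gene. The promoter vehicle libraries have medians of 0.57, 0.36 and 0.43, and the medians of the other 9 libraries lie between -0.32 and 0.04.

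The summed level of these genes was 2402 to 2566 CPM in NT vehicle, 2458 to 2947 in NT MPA, 3717 to 4239 in promoter vehicle and 2492 to 3005 in promoter MPA, so that promoter vehicle alone lay apart. PIMREG, MTFR2, RMI2 and GTSE1, genes outside the list that act in mitosis, mitochondrial fission, DNA repair and the G2 phase, were among the largest negative differences and had the same place: in vehicle PIMREG stood at 10.7, 8.79 and 8.13 CPM in promoter cells and 4.18, 3.38 and 3.41 in NT cells (difference -1.54 ± 0.29, adjusted p = 0.00836). The number of the 53 members called in a fit, which can include members not among the 12, fell from 12 to 3 without NT vehicle replicate 2, promoter vehicle replicate 1 or promoter MPA replicate 1. It was 4 without NT MPA replicate 3 or promoter MPA replicate 2, 6 without NT vehicle replicate 3 and 7 without promoter MPA replicate 3. MCM4, RRM2 and EXO1 were called in all 18 alternatives, as was PIMREG, while CDK1 held, with 1 library left out, only where that was NT vehicle replicate 3, NT MPA replicate 2 or promoter vehicle replicate 3 (adjusted p up to 0.116). GTSE1 held only without NT vehicle replicate 1, NT MPA replicate 1, promoter vehicle replicate 2 or promoter vehicle replicate 3 (up to 0.125). MTFR2 (up to 0.0821) and RMI2 (up to 0.088) were each lost without NT vehicle replicate 2, promoter vehicle replicate 1 or promoter MPA replicates 1 or 3, and RMI2 also without promoter vehicle replicate 2. The share of mitochondrial counts was 1.63% to 2.15% in promoter vehicle, 2.01% to 2.15% in promoter MPA, 2.51% to 3.02% in NT vehicle and 2.11% to 2.63% in NT MPA. It was lower in promoter than in NT vehicle and overlapped between the promoter groups, and its part in the result was not tested. In bulk RNA, more cells in cycle and more of these transcripts per cell cannot be told apart.

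The promoter of CDK1 is shown as that of a called mitotic gene which holds both motifs counted here. The 250 bases before the RefSeq start are given on the plus strand (chr10:60778228-60778477, GRCh38.p14), with CCAAT boxes (CCAAT, here as ATTGG on the strand shown, beginning 78 and 46 bases before the start) and the cell cycle homology region TTTGAA (69 and 13 before) in capitals.
CDK1: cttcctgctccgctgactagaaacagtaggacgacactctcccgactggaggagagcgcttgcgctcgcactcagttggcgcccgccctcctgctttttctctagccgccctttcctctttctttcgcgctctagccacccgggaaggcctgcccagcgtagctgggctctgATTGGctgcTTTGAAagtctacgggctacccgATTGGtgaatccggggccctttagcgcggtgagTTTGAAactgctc
On either strand of any window of a gene, CCAAT was found in 42.9% of the 11003 tested genes with a window. It was found in 32 of 43 mitotic and replication genes (74.4%) and in 6 of the 9 of these that were called. Among genes with a negative difference placed in vehicle it was found in 34 of 51 (66.7%). TTTGAA was found in 14.3% of the tested genes, in 18 of the 43 (41.9%), in 3 of the 9 and in 23 of the 51 (45.1%). It was also found in 23 of the 90 enlarged genes with the more positive response (25.6%). These shares describe letters only.

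Reduced responses were few and lay in either treatment, under MPA in 9 of 18, in vehicle in 8 and in both in 1. FRY (13:31846713-32299122), a large scaffold protein of the microtubule and NDR kinase systems, had the lowest adjusted p of those named. It rose in NT cells from 18.8, 21.6 and 19.3 to 35.3, 40.2 and 39.2 CPM, and stood in promoter cells at 20.1, 19.6 and 18.1 in vehicle and 18.1, 19.4 and 19 in MPA. The NT MPA libraries alone were apart. The NT response was 0.94 ± 0.09, the promoter response -0.03 ± 0.09 (adjusted p = 0.87) and the difference -0.97 ± 0.13 (adjusted p = 0.000379). SYTL4, an effector of vesicle exocytosis, rose in both lines but less in promoter cells (1.61 ± 0.10 and 0.81 ± 0.10, difference -0.80 ± 0.14), and ended at 23.2, 19.9 and 21.6 CPM against 30.4, 29.9 and 31 in NT MPA. ITGB3, the integrin beta 3 chain, also rose in both (1.09 ± 0.09 and 0.51 ± 0.08), from a higher start in promoter cells, at 39.5, 42.5 and 36.1 CPM against 25.9, 28.3 and 31.2. SYTL4 and ITGB3 were the 2 reduced genes with a called promoter response. P3H2, a collagen prolyl hydroxylase, PTGS1, cyclooxygenase 1, and UCP2, a mitochondrial carrier, rose in NT cells and had no called promoter response, with differences of -0.86 ± 0.20, -0.78 ± 0.18 and -1.30 ± 0.30.

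Other reduced genes fell in NT cells and had no called response in promoter cells. PDE10A and PDE7B, phosphodiesterases that break down cyclic nucleotides, both had the difference in vehicle. PDE10A stood at 25.2, 30.3 and 29.9 CPM in NT vehicle and at 10.6 to 18.8 in the other 9 libraries (NT response -1.17 ± 0.13, promoter response -0.25 ± 0.12, difference 0.92 ± 0.18, adjusted p = 0.0111). PDE7B stood at 35.1, 39.9 and 41.9 CPM in NT vehicle and 20.4, 19.7 and 23 in promoter vehicle, and the MPA groups overlapped (difference 0.80 ± 0.14, adjusted p = 0.00435). TGFB2 (1:218346235-218444619), a TGF-beta ligand, had the difference under MPA: it fell in NT cells from 4.02, 5.15 and 5.5 to 2.86, 2.91 and 2 CPM and stood at 7.49, 7.95 and 7.36 in promoter MPA (difference 1.13 ± 0.24, adjusted p = 0.0215). GREB1L (0.71 ± 0.15) and KALRN (0.94 ± 0.23) were placed under MPA and ZFP36L1, a protein that promotes mRNA decay (0.65 ± 0.15), in vehicle. FRY, SYTL4, PDE10A and PDE7B were called in all 18 alternatives. The call of TGFB2 was lost without replicate 2 or 3 of NT vehicle, NT MPA replicate 3, promoter vehicle replicate 1 or 2 or promoter MPA replicate 2 (adjusted p up to 0.0754), and that of GREB1L without these or promoter MPA replicate 3 (up to 0.0796). UCP2 held, with 1 library left out, only where that was NT vehicle replicate 1, NT MPA replicate 1, promoter vehicle replicate 2 or promoter vehicle replicate 3 (up to 0.138). P3H2 held only without NT MPA replicate 1 (up to 0.136), PTGS1 (up to 0.168) and ZFP36L1 (up to 0.128) only without that library or promoter vehicle replicate 3, and KALRN only without promoter MPA replicate 2 (up to 0.145). KALRN was also lost with no filter, the 4 groups alone, the replicate block, and GC and length offsets. ITGB3 was lost without NT vehicle replicate 2, NT MPA replicate 1, promoter vehicle replicate 1 or promoter MPA replicates 1 or 3, and with GC and length offsets (up to 0.125).

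CNTN3 (3:74262568-74521140), a cell adhesion molecule of the contactin family, was the reversed gene. It stood at 27.6, 30.1 and 30.4 CPM in NT vehicle, 20.8, 19.5 and 16.7 in NT MPA, 24.5, 26.4 and 30.6 in promoter vehicle and 43.8, 47.5 and 47 in promoter MPA. The vehicle groups overlapped, and the MPA groups lay below and above them. It fell in NT cells (-0.63 ± 0.11, adjusted p = 0.00108) and rose in promoter cells (0.76 ± 0.11, adjusted p = 4.28e-05), a difference of 1.39 ± 0.15 (adjusted p = 7.8e-05) that lay under MPA (1.28 ± 0.11). The call of the difference held in all 18 alternatives. In U1U2 cells its response was 0.11 ± 0.11 and was not called.

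Several lists held no called difference: steroid receptors and coregulators (23 measured, median 0.07), cytokines and chemokines (13, -0.20), sterol and fatty acid synthesis (33, -0.26), contractile and myofibroblast genes (24, -0.01), genes of glycolysis and hypoxia (30, -0.19), of the unfolded protein response and amino acid stress (28, -0.08) and p53 targets (22, -0.14). A missing call does not show equal responses. Sterol synthesis genes had called falls under MPA in 8 of 33 cases in NT cells and in 16 in promoter cells, with 26 of 33 differences below 0 and none called. Called falls covered 3.48% of all tested genes in NT cells and 8.40% in promoter cells. Of 16 endometrial stromal markers HAND2 was called (list median -0.03). Of the lists of other cell types, epithelial (5 measured) and leukocyte markers (2) had no call. The 1 called endothelial marker of 3 was TEK, an angiopoietin receptor that these cells held at 42.2 to 74.5 CPM in all libraries (difference -0.43 ± 0.10). With 1 library left out, its call held only where that was NT vehicle replicate 1 (adjusted p up to 0.185). The summed endothelial list stood at 56.1 to 61.5 CPM in NT vehicle, 46.2 to 48.9 in NT MPA, 74.4 to 76.5 in promoter vehicle and 44.3 to 45.3 in promoter MPA. The summed epithelial list stood at 29.7 to 44.9, 24.5 to 36.8, 38.6 to 53.5 and 27.8 to 36.5 CPM in the same order. The part of these levels in the results was not tested. PECAM1 and CDH5 were at 4 counts or fewer throughout.

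The U1U2 libraries, which did not enter the contrast but shared the fit's estimate of the spread, gave the MPA response of the third line. MPA was called to change 1814 genes there (11.7%), 846 higher (5.44%) and 968 lower (6.22%). Of the 113 enlarged rises 98 were called higher in U1U2 cells (86.7%) and none lower. Of the 105 enlarged falls 55 were called lower (52.4%) and none higher. The 71 enlarged genes with a called NT response were all called in the same direction in U1U2 cells. All enlarged genes were selected for a called promoter response, so the shares over all tested genes are not a like comparison. The share among other genes that respond to MPA was not computed. Of the 71 negative differences placed in vehicle 18 were called lower in U1U2 cells and 1 higher, and none of the 53 mitotic and replication genes was called there (median -0.03). Of the 18 reduced genes 3 were called. FOXO1 rose by 1.81 ± 0.12, APCDD1 by 3.81 ± 0.20, DEPP1 by 3.31 ± 0.24 and G0S2 by 1.99 ± 0.17 in U1U2 cells, and KIT fell (-2.21 ± 0.11), whereas PIMREG stood at -0.09 ± 0.19, MTFR2 at -0.14 ± 0.19 and GTSE1 at -0.17 ± 0.18.

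**Figure D5:**
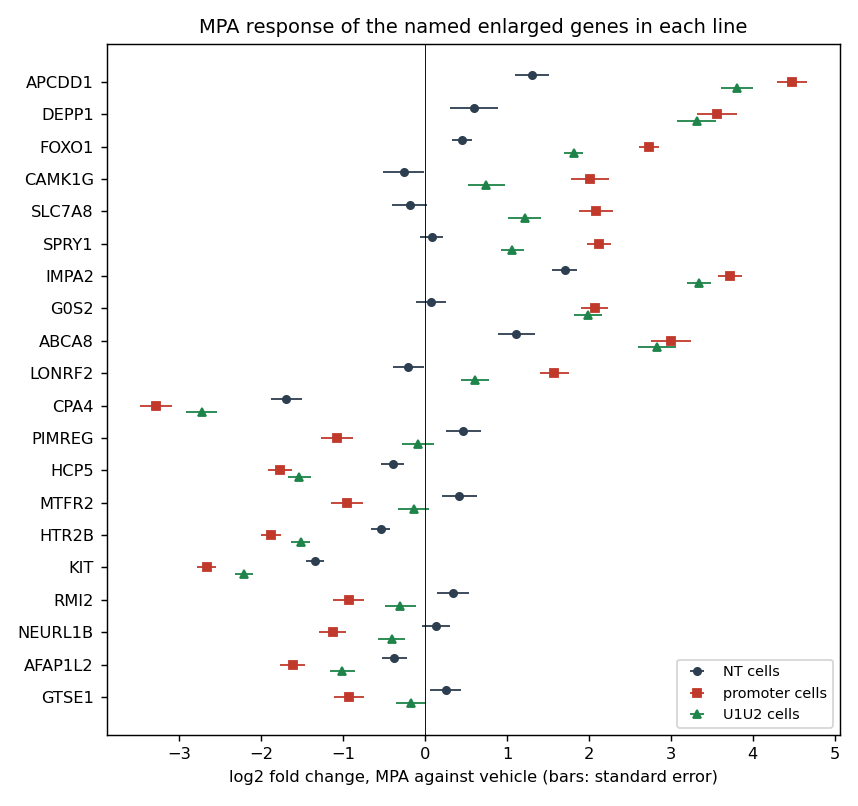
MPA response (log2 fold change against vehicle, bars are standard errors) in NT, promoter and U1U2 cells for the 10 enlarged genes with the most positive and the 10 with the most negative difference of responses. In the upper 10 genes the U1U2 response lies between the NT and promoter responses, from 0.61 for LONRF2 to 3.81 for APCDD1. In the lower 10, KIT, PIMREG, MTFR2, RMI2, NEURL1B and GTSE1 are among those whose U1U2 response lies nearer to 0 than the promoter response.

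The number of called differences fell from 242 to 116 without NT vehicle replicate 2, 119 with promoter vehicle replicate 1 left out, 132, 137 and 135 when promoter MPA replicates 1, 2 and 3 were left out in turn, 145 without the third NT vehicle replicate and 156 without the third NT MPA replicate. In all 19 fits 95 of the 242 genes were called, 66 with the more positive and 29 with the more negative promoter response, and all 242 kept their sign. FOXO1, HAND2, DEPP1, FKBP5, APCDD1, LAMA2, SPRY1, KIT, FGF9, WNT2, IFIT1 and MMP1 were called in every one. Just inside the threshold were ARMC9 (adjusted p = 0.0488) and E2F7 (0.0489), and just outside it CDKN3 (0.0508) and PTPRJ (0.0512).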

How the data were processed

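RNA-seq libraries were made from poly(A) RNA with a stranded kit, per the labels' protocols. The authors deposited whole-number read counts per gene, which were used here; their log2 CPM table was not used. The tools were STAR 2.6.0c, edgeR 4.2.2 and R 4.4.1 and the build hg38, per the submitters' processing notes. The counter, its strand setting and the annotation are not given in the sources used here, so reads of overlapping or antisense genes may be shared.

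The deposited counts of all 18 libraries were fitted with edgeR 4.0.16 in R 4.3.3 (TMM factors, filterByExpr with a minimum count of 10, 1 term per group, quasi-likelihood F test), which left 15558 genes of 78724. P-values were adjusted over these genes (Benjamini-Hochberg) and called under 0.05; adjusted p values in the text come from this edgeR fit unless an alternative is named. Standard errors are |log2 fold change| over the root of F. The procedure was tested on simulated data. Replicates differed by more than sampling noise (chi-square per degree of freedom 1.84 to 28.3), so none was merged. Positions are from GENCODE 29 and promoters from RefSeq.

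The comparison and the 22 gene lists were chosen with earlier results of these data known. Named genes were, at a mean log2 CPM of at least 1 and with symbols that are not clone-based, the 10 most positive and 10 most negative enlarged, 6 and 6 reduced, up to 8 reversed, and 4 and 4 vehicle-placed genes. PGR and list members could always be named. Alternatives were DESeq2 1.42.0, its size factors, no filter, the 4 groups alone, the replicate block, GC and length offsets, and each library left out.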

Additional observations from a re-analysis of the deposited data

Results flagged for a closer look

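The MPA responses of promoter and NT cells differed, by the test of the difference itself, in 242 genes. CNTN3 had called responses in opposite directions in the 2 lines, with a difference of 1.39 on the log2 scale. Groups held 3 libraries each, so no library was tested as an outlier.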

How the results depend on the processing

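With DESeq2 the called differences numbered 467 (237 more positive, 230 more negative), of which 401 were enlarged, 44 reduced and 4 reversed, and 168 lay in MPA, 209 in vehicle, 45 in both and 45 in neither. With no filter on low counts they numbered 758 (298 and 460), with 525, 105 and 27 genes and with 180, 393, 64 and 121 in the same order. GC and length offsets gave 446 (204 and 242), with 399 enlarged, 32 reduced and 6 reversed, 208 in vehicle, 60 in both and 20 in neither, and gave 1389 genes for the NT response, 1792 for the lines in vehicle and 1052 in MPA. With only the compared groups fitted 208 differences were called, of which 3 lay in neither, and 1049 genes were called for the U1U2 response. With the replicate block 150 were called, 61 of them more negative, with 137 enlarged, 10 reduced, 51 in vehicle, 15 in both and 6 in neither. Calls lost with the block included TXNIP, SLC19A2, BMP2, PLAU, CDK1, GTSE1, RMI2, UCP2, PTGS1, ZFP36L1, GREB1L, KALRN and TEK. Those lost with only the compared groups fitted included BMP2, CDK1, KALRN and TEK, and TEK was also lost with no filter. Same-numbered libraries of different groups correlated between -0.52 and 0.37 in their deviations from the group means (median -0.03), against -0.28 to 0.37 for other pairs. The values were 0.37, 0.17 and 0.14 between NT vehicle and promoter MPA. Between NT MPA and promoter vehicle they were -0.43, -0.35 and -0.52. With 3 libraries a group, these correlations cannot settle whether the replicate numbers pair the samples, and the main fit did not pair them. Leaving out 1 library at a time gave 116 to 271 called differences (78 to 150 more positive, 36 to 121 more negative), with 106 to 242 enlarged, 5 to 24 reduced and 1 to 5 reversed, and 67 to 109 in MPA, 28 to 127 in vehicle, 8 to 28 in both and 2 to 15 in neither. It gave 612 to 972 genes for the NT response, 1565 to 2627 for the promoter response, 472 to 1347 for the lines in vehicle, 390 to 726 in MPA and 1267 to 1921 for the U1U2 response. DESeq2's size factors within edgeR gave 225 called differences. Of 1331 values of 74 named or listed genes under the alternatives, none reversed and 245 lost their call. The cause of these shifts was not tested. With 3 libraries a group, NT vehicle being the shallowest (11.9 to 20.8 M counts), and 1 batch label, a repeat within batches was not possible.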
